A study of Mus musculus with 6 samples.

Results

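The 10 genes described here encode the hepatic enzymes that turn cholesterol into conjugated bile acids: Cyp7a1, Cyp8b1, Cyp27a1, Cyp7b1, Hsd3b7, Akr1d1, Acox2, Amacr, Slc27a5 and Baat. They were chosen by symbol from their known roles, with earlier results of these data known. All 10 were found among the 24421 gene symbols of the count table. The study sequenced RNA of 6 liver samples from male 4-month-old C57BL/6 mice, 3 labelled Sesn3 KO (KO) and 3 labelled wild type (WT). Sesn3 encodes sestrin 3, a stress-inducible regulator of mTORC1 and AMPK signalling. Both genotypes ate the same diet for 4 weeks, with 40% of its energy from fat, 40% from carbohydrate and 20% from protein. It held the bile salt sodium cholate at 0.5% and was enriched in cholesterol (1.25%). There was no group on a diet without cholate, so the values below compare genotypes under bile acid feeding only. The labels do not say which part of Sesn3 was deleted or in which cells.

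Bile acids are made by hepatocytes along a classic route, which begins at the endoplasmic reticulum with Cyp7a1, and an alternative route, which begins in mitochondria with Cyp27a1 and continues with Cyp7b1. The ring changes are followed by shortening of the side chain in peroxisomes and by joining of the product to taurine or glycine. Bile acids returning to the liver repress their own synthesis, mainly through the nuclear receptor FXR (Nr1h4), its target SHP (Nr0b2) and the intestinal hormone FGF15 acting on hepatic FGFR4 and beta-klotho. Cyp7a1 and Cyp8b1 are the classical targets of that feedback.

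Libraries held between 18882220 and 24098512 counts. Sesn3 had 16 to 18 counts in the 3 libraries labelled KO and 172 to 200 in the 3 labelled WT, and was 14.4-fold lower in KO (edgeR adjusted p = 0.00183). Levels are given as CPM, read counts normalised to library size after TMM scaling. The 10 enzymes together took 0.136% to 0.200% of all counts in the KO libraries and 0.258% to 0.297% in the WT libraries.

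All 10 enzymes had negative log2 fold changes in KO, with a median of -1.06 against 0.00 over all 12945 genes tested, although Acox2 turned positive when scaled by upper quartiles (0.03) or left unscaled (0.18). In 4 of them the fall passed the threshold, an adjusted p of 0.05 from edgeR's quasi-likelihood test over all tested genes: Cyp7b1, Cyp27a1, Hsd3b7 and Slc27a5. That is 40% of the enzymes, while 3.58% of all tested genes were called lower in KO. The count of 4 changed when single libraries were left out. It was 0 without KO replicate 1 or KO replicate 2, and 1 without WT replicate 3. It was 2 without KO replicate 3 or WT replicate 2. Without WT replicate 1 it was again 4, with Cyp8b1 (edgeR adjusted p = 0.0122) in place of Slc27a5 (0.0724). Calls over all genes moved too. With all libraries 463 genes were lower in KO, against 151, 53 and 131 without KO replicates 1 to 3. Without WT replicates 1 to 3 they were 458, 475 and 160. No enzyme was called higher by edgeR, DESeq2 or limma-voom, while edgeR called 3.36% of all tested genes higher. At an unadjusted edgeR p below 0.05 the count was 6 lower and 0 higher. Many genes met that cutoff: in either direction, an unadjusted p of 0.0489 held only rank 3304 of the 12945 tested genes. In 6 enzymes every KO library lay below every WT library, against 16.6% of the tested genes. All 10 passed the filter on low counts.

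**Figure D1:**
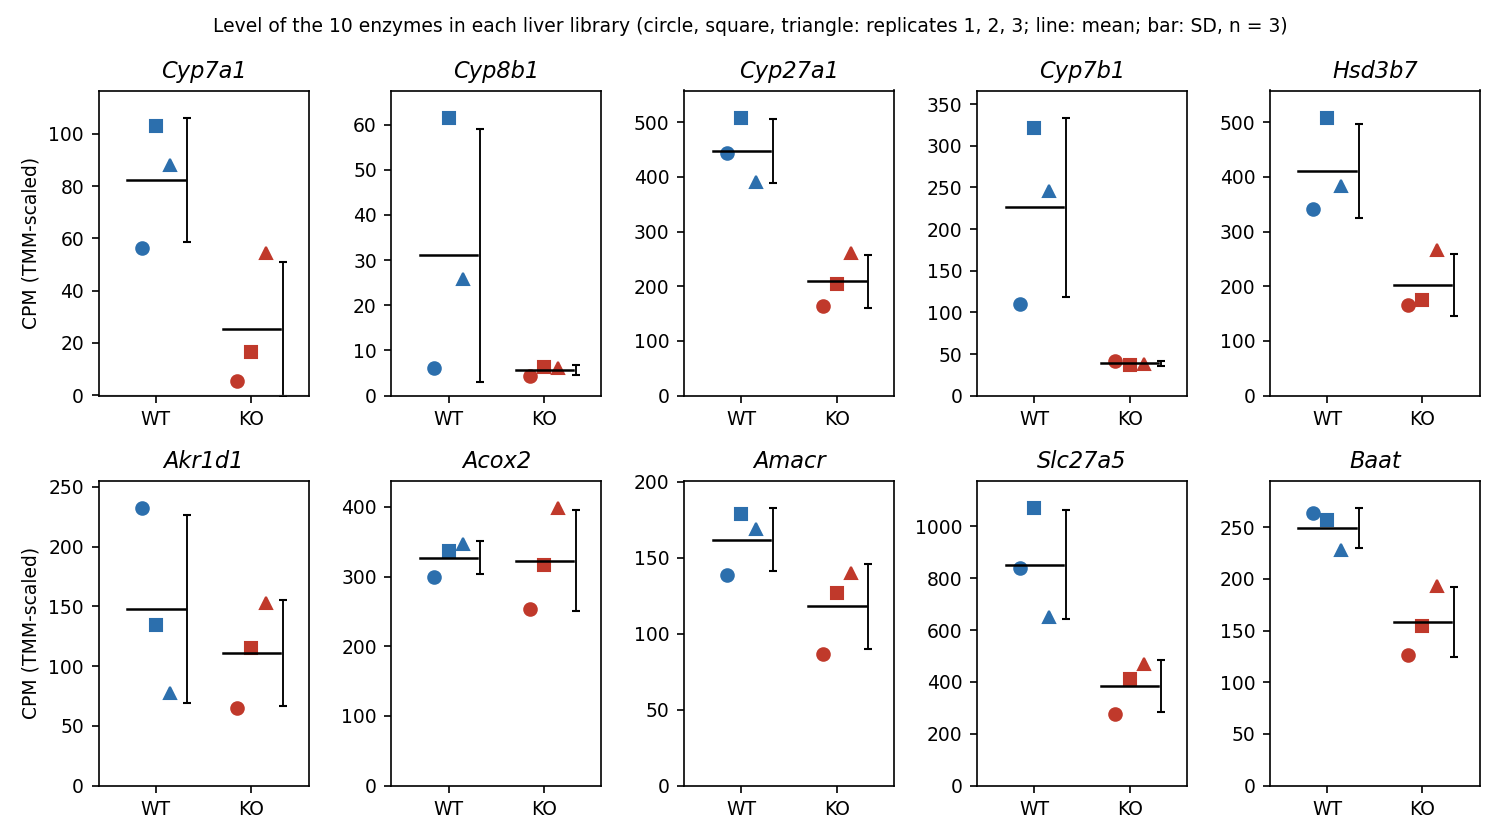
TMM-scaled CPM of each enzyme in the 3 WT (blue) and 3 KO (red) libraries, on linear axes, with circles, squares and triangles for replicates 1, 2 and 3, a line for the mean and a bar for the SD (n = 3). Cyp27a1, Cyp7b1, Hsd3b7, Slc27a5, Baat and Cyp7a1 show no overlap between genotypes, while the Acox2 KO values extend beyond the WT values at both ends.

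Both enzymes of the alternative route fell. Cyp7b1, the oxysterol hydroxylase of that route, was at 42.0, 37.0 and 37.5 CPM in KO replicates 1 to 3 and at 110, 321 and 246 CPM in WT replicates 1 to 3. The KO libraries were close together, with a highest value 1.13 times the lowest, while the WT libraries were spread 2.91-fold and still did not reach down to them. The means were 38.8 ± 2.74 CPM in KO and 226 ± 107 CPM in WT (SD, n = 3 each), a 5.82-fold difference (log2 fold change -2.54, SE 0.37, edgeR adjusted p = 0.0143). The gene lies on the minus strand of chromosome 3 from 18071950 to 18243338 (mm10). Of the 6 fits that left out 1 library, those without a WT library passed. Without WT replicate 3 the pass was marginal, with an edgeR adjusted p that rounds to 0.05. The fits without a KO library did not pass, with an edgeR adjusted p between 0.0631 and 0.0776.

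Cyp7b1 is expressed more in male than in female mouse liver. A list of 20 other tested genes with that bias had 16 called lower and none higher, with a median log2 fold change of -3.71. By limma-voom 10 of them were called, and by DESeq2 19. Their summed level was 3419 to 5411 CPM in KO and 9612, 35100 and 20070 CPM in WT replicates 1 to 3. Mup20 was the largest part of that sum in every library, at 4660, 15800 and 9940 CPM in WT replicates 1 to 3. The order of the WT libraries was not the same in every gene of the list, and Cyp4a12a and Mup21 were highest in WT replicate 3. WT replicate 1 was the lowest WT library both for the sum and for Cyp7b1, and WT replicate 2 was the highest for both. The part of this shared pattern in the Cyp7b1 difference was not tested.

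Cyp27a1, the mitochondrial sterol hydroxylase that opens the alternative route and starts side-chain oxidation in both routes, was at 163, 204 and 261 CPM in KO and at 443, 507 and 390 CPM in WT. The highest KO library lay well below the lowest WT library. The difference was 2.13-fold (209 ± 48.9 against 447 ± 58.4 CPM, SD, n = 3 each; log2 difference -1.09, SE 0.21, edgeR adjusted p = 0.0256). Its locus is chromosome 1, plus strand, from 74713574 to 74737892 (mm10). The call was lost, at an adjusted p of 0.119 at most, when KO replicate 1, KO replicate 2 or WT replicate 3 was left out.

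The ratio of Cyp7b1 to Cyp27a1 counts needs no scaling between libraries. It was 0.257, 0.181 and 0.144 in KO replicates 1 to 3 and 0.249, 0.634 and 0.631 in WT replicates 1 to 3. WT replicate 1 thus lay inside the KO range, so the steeper fall of Cyp7b1 was not seen against every WT library. The mean log2 ratio was -2.41 ± 0.42 in KO and -1.11 ± 0.78 in WT (SD, n = 3 each). Gene pairs for such ratios were chosen after the values were seen, and no test was run on them.

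Cyp7a1, the rate-limiting hydroxylase of the classic route, was at 5.41, 16.4 and 54.3 CPM in KO replicates 1 to 3 (128, 426 and 1260 counts) and at 56.3, 103 and 88.0 CPM in WT. The KO libraries covered a 10-fold range, and the highest of them fell just short of the lowest WT library. The WT libraries covered a 1.82-fold range. The fitted difference was 3.25-fold (25.4 ± 25.6 against 82.3 ± 23.7 CPM, SD, n = 3 each), with a log2 fold change of -1.70, an SE of 0.73 and a 95% interval from -3.41 to 0.02, and it did not pass (edgeR adjusted p = 0.197). No alternative setting brought it past the threshold, and without KO replicate 3 the log2 fold change was -2.91 (adjusted p = 0.0631). The gene lies on the minus strand of chromosome 4 from 6265612 to 6275633 (mm10).

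Cyp8b1, the sterol hydroxylase that directs synthesis to cholic acid, showed the opposite distribution of spread. It was at 4.44, 6.33 and 6.16 CPM in KO (105, 164 and 143 counts) and at 6.12, 61.4 and 25.9 CPM in WT (117, 1056 and 484 counts). WT replicate 1 lay within the KO range, and the WT libraries differed 10-fold. The fitted difference was 5.50-fold (5.64 ± 1.05 against 31.1 ± 28.0 CPM, SD, n = 3 each; log2 difference -2.46, SE 0.72) and did not pass in edgeR (adjusted p = 0.0887). It passed in DESeq2 (adjusted p = 0.00127) and in edgeR without WT replicate 1 (log2 fold change -2.94, adjusted p = 0.0122), and limma-voom gave an adjusted p of 0.224.

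The ratio of Cyp8b1 to Cyp7a1 was far from constant within either genotype. Cyp8b1 stood at 0.820, 0.385 and 0.113 of the Cyp7a1 count in KO replicates 1 to 3 and at 0.109, 0.598 and 0.294 in WT replicates 1 to 3. The mean log2 ratio was -1.60 ± 1.44 in KO and -1.90 ± 1.23 in WT (SD, n = 3 each), with groups that overlapped throughout. Both genes had lower mean levels per kilobase than the other enzymes in WT and in KO, as given below. With no group on a diet without cholate, the part of bile acid repression in these levels was not tested.

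The sequence before the Cyp8b1 start is shown because HNF4A, a hepatocyte nuclear receptor, is a known activator of this gene, and because its motif is among those found there. Promoter windows from RefSeq (GRCm38.p6), 250 bases before to 50 bases after the start, were found for 5 of the 10 enzymes (Cyp27a1, Akr1d1, Hsd3b7, Cyp8b1 and Acox2). Both strands were searched for the HNF4A motif CAAAGTCCA, the NR5A2 (LRH-1) motifs CAAGGTCA and CAAGGCCA, the STAT5 motif TTCNNNGAA and the TATA box TATAAA. Among 32851 promoter windows of that length, 0.475% held the HNF4A motif, 1.56% and 2.40% the NR5A2 motifs, 8.30% the STAT5 motif and 13.6% the TATA box. In the Cyp8b1 sequence (chr9:121916306-121916555, minus strand) capitals mark the HNF4A motif and, after it, the TATA box. In the 30 bases from the Hsd3b7 window (chr7:127800578-127800607, plus strand) capitals mark the STAT5 motif, which is a palindrome and so is found on both strands. The other 3 enzymes had no match to these letters in their windows.
Cyp8b1: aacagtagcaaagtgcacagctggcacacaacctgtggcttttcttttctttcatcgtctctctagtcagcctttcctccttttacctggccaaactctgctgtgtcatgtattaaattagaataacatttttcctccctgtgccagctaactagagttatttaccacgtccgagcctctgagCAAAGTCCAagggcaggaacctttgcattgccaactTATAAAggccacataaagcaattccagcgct
Hsd3b7: gctggtctccTTCCTGGAAtgggtcaggag
Hnf4a itself was at 500, 537 and 548 CPM in KO and 528, 737 and 477 CPM in WT, with groups that overlapped (log2 fold change -0.14, SE 0.20, edgeR adjusted p = 0.698), and its direction turned with library size only and without WT replicate 2. A match of letters is a description of the sequence and not evidence of binding.

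Of the enzymes that modify the ring, Hsd3b7 fell and Akr1d1 did not pass. Hsd3b7, the dehydrogenase that acts on the products of both routes, was at 165, 175 and 267 CPM in KO and at 342, 507 and 384 CPM in WT. All KO libraries were below all WT libraries. The difference was 2.03-fold (202 ± 56.1 against 411 ± 85.7 CPM, SD, n = 3 each; log2 difference -1.02, SE 0.24, edgeR adjusted p = 0.0469), and the adjusted p rose to as much as 0.175 when KO replicate 1 or 2, or WT replicate 2 or 3, was absent. Hsd3b7 lies on chromosome 7 from 127800604 to 127803802 (mm10), where GENCODE M21 has 2 other gene models that share exonic bases with it, Gm49388 on the same strand and 9430064I24Rik on the other. Neither is a row of the count table, so reads in shared bases cannot be told apart.

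Akr1d1, the reductase that gives the sterol nucleus its bent form, varied within both groups and did not differ beyond that spread. It was at 64.9, 115 and 153 CPM in KO and at 232, 134 and 77.3 CPM in WT. The groups overlapped almost fully, and the log2 fold change of -0.42 had a 95% interval from -1.46 to 0.62 (edgeR adjusted p = 0.593). Without WT replicate 1 it was 0.08.

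Neither enzyme of peroxisomal side-chain shortening passed. Acox2, the branched-chain acyl-CoA oxidase, was at 254, 317 and 398 CPM in KO and at 300, 336 and 346 CPM in WT. The KO values lay on both sides of the WT values, and the log2 fold change was -0.02 with a 95% interval from -0.46 to 0.42 (edgeR adjusted p = 0.963). Amacr, the racemase that prepares the side chain for that oxidase, was at 86.4, 127 and 140 CPM in KO and at 139, 179 and 169 CPM in WT. KO replicate 3 was just above WT replicate 1, and the log2 fold change of -0.46 (95% interval -0.93 to 0.00) did not pass (edgeR adjusted p = 0.196).

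Set against Cyp27a1 within the same library, Acox2 was relatively higher in every KO library. There were 1.56, 1.56 and 1.53 Acox2 counts per Cyp27a1 count in KO replicates 1 to 3 and 0.677, 0.663 and 0.887 in WT replicates 1 to 3. The KO ratios were nearly identical (mean log2 ratio 0.63 ± 0.02, SD, n = 3) and lay above all WT ratios (-0.44 ± 0.23, SD, n = 3), a difference of 1.07 that stayed between 1.00 and 1.21 when any 1 library was left out. This ratio shows that the enzymes differed unequally and not which of them changed.

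At the conjugation steps Slc27a5 fell and Baat did not pass. Slc27a5, the bile acyl-CoA synthetase, was at 276, 412 and 471 CPM in KO and at 839, 1070 and 650 CPM in WT. The groups did not overlap, and the difference was 2.21-fold (386 ± 100 against 853 ± 210 CPM, SD, n = 3 each; log2 difference -1.14, SE 0.26, edgeR adjusted p = 0.0464). The call was lost when any of the 6 libraries was left out, with adjusted p between 0.0707 and 0.153. The gene lies on the minus strand of chromosome 7 from 12988346 to 12998192 (mm10).

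Baat, the acyltransferase that joins the activated bile acid to taurine or glycine, was at 126, 154 and 193 CPM in KO and at 264, 257 and 228 CPM in WT. The groups did not overlap, yet the 1.58-fold difference (158 ± 33.8 against 249 ± 19.2 CPM, SD, n = 3 each; log2 difference -0.66, SE 0.18, 95% interval -1.07 to -0.25) did not pass in edgeR (adjusted p = 0.0649), and it passed in DESeq2 (adjusted p = 0.00932). Per Slc27a5 count there were 0.457, 0.374 and 0.411 Baat counts in KO and 0.315, 0.240 and 0.350 in WT, without overlap.

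**Figure D2:**
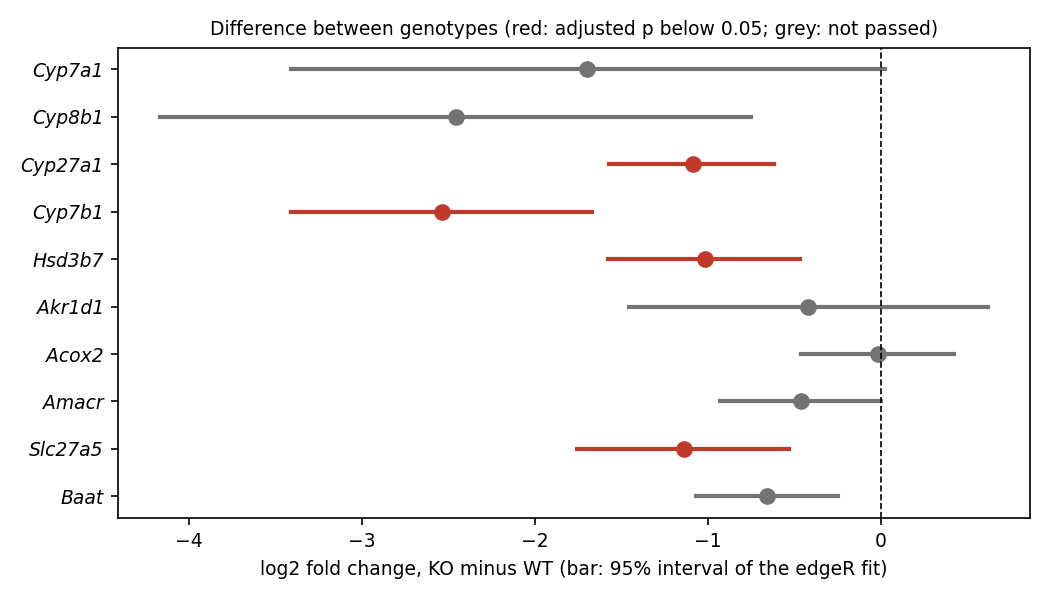
Log2 fold change (KO minus WT) of each enzyme from the edgeR fit, with its 95% interval and a dashed line at no change. The intervals of Cyp7a1 and Cyp8b1 are wide, those of Cyp27a1 and Baat narrow, and that of Acox2 is centred at -0.02.

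Levels of different genes were compared per kilobase of exon. In WT the order was Slc27a5 (350 ± 86.2 CPM per kilobase), Cyp27a1 (206 ± 26.9), Hsd3b7 (148 ± 31.0), Baat (129 ± 9.89), Cyp7b1 (104 ± 49.3), Acox2 (88.4 ± 6.49), Amacr (62.3 ± 7.96), Akr1d1 (51.1 ± 27.1), Cyp7a1 (19.7 ± 5.68) and Cyp8b1 (16.0 ± 14.4; SD, n = 3 each). The ranges of mean ± SD overlapped between neighbours from Hsd3b7 to Acox2 and again from Amacr to Cyp8b1. In KO, Slc27a5 (158 ± 41.0 CPM per kilobase) and Cyp27a1 (96.3 ± 22.5) still led, Acox2 held rank 3 at 87.3 ± 19.5, and Cyp7b1 rank 8 at 17.9 ± 1.26. The Cyp27a1 and Acox2 values overlapped in KO, and with the longest transcript as the length both were at 111 CPM per kilobase, with Acox2 at rank 2. The hydroxylases Cyp7a1 (6.08 ± 6.14) and Cyp8b1 (2.89 ± 0.537) were lowest in KO as in WT.

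The enzymes followed the libraries as well as the genotypes. KO replicate 1 was the lowest KO library for 9 of the 10 enzymes, the exception being Cyp7b1, and KO replicate 3 was the highest for 8. WT replicate 2 was the highest WT library for 7. Relative to the WT mean of each gene, the median over the 10 enzymes was -1.37 on the log2 scale in KO replicate 1, -1.07 in KO replicate 2 and -0.58 in KO replicate 3, and it was between -0.17 and 0.26 in the WT libraries. Cyp7b1 was nearly level across the KO libraries and Cyp8b1 spread 1.43-fold there, whereas Cyp7a1 stood at -3.88, -2.28 and -0.56. TMM factors were at their extremes in the same libraries, 1.15 in KO replicate 1 and 0.856 in WT replicate 2. With library size only in place of TMM, each of the 4 falling enzymes still passed.

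**Figure D3:**
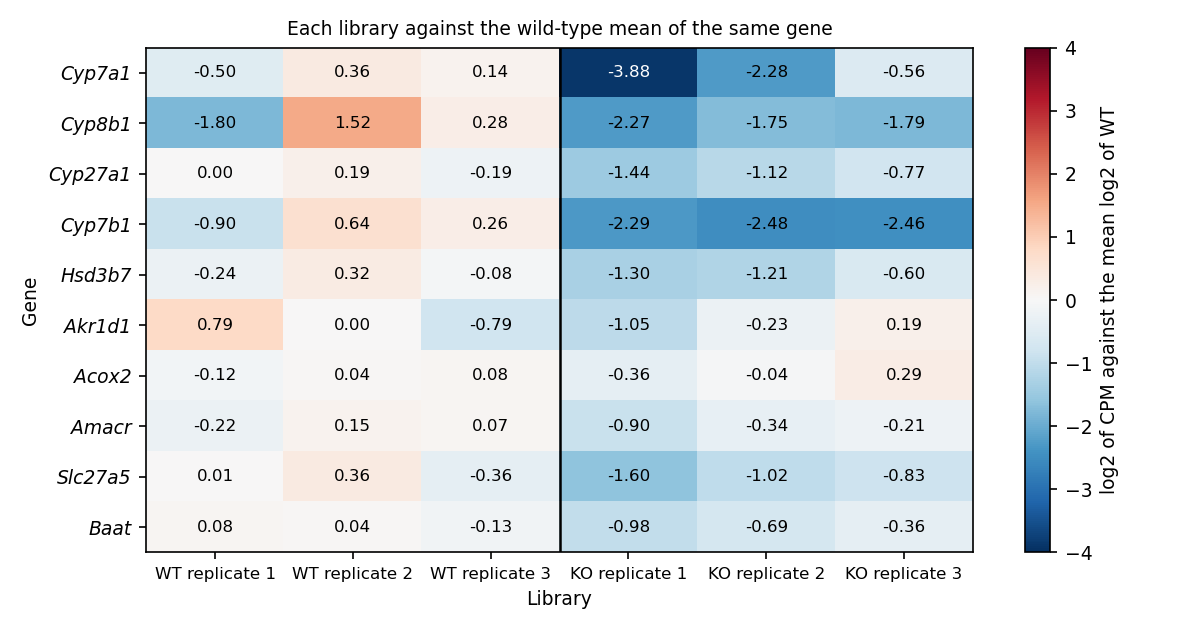
Log2 of each library's CPM against the mean log2 CPM of WT for the same gene, with blue for lower and red for higher values. The column of KO replicate 1 is the palest for Acox2 (-0.36) and the darkest for Cyp7a1 (-3.88), and the row of Cyp7b1 is even across the KO libraries.

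Among genes with a mean of at least 10 CPM, those whose log2 CPM closely followed Cyp7a1 over the 6 libraries included Acsm5 (Pearson r = 0.9952) and Mpv17l (r = 0.9888), and neither was called different. The 3 that followed Cyp7b1 most closely were Ccdc58 (r = 0.9979), Gpr108 (r = 0.9963) and Coq5 (r = 0.9956), of which Gpr108 was called lower in KO. These are descriptions over 6 libraries that share the genotype difference, taken from the highest of 7816 candidates.

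The calls among other genes of bile acid synthesis and modification were all in the lower direction. Of 19 tested, 4 were called lower (21.1%) and none higher, with a median log2 fold change of -0.40. They were Sult2a8, a bile acid sulfotransferase of mouse liver, Akr1c6, a hydroxysteroid dehydrogenase, Stard4, a cholesterol carrier, and Fdx1, the ferredoxin that passes electrons to mitochondrial P450 enzymes such as Cyp27a1. Fdx1 was at 53.8, 64.3 and 63.5 CPM in KO and at 83.0, 124 and 99.9 CPM in WT (log2 fold change -0.76, SE 0.17, edgeR adjusted p = 0.0402), and missed the threshold with library size only (adjusted p = 0.0590) and in 5 of the 6 fits without 1 library. Sult2a8 was at 11.5, 20.4 and 19.5 CPM against 384, 786 and 428 CPM (log2 fold change -4.96, SE 0.39, adjusted p = 0.00421) and passed without each library in turn. Sult2a and Akr1c genes have close copies, so how reads were divided among them is uncertain.

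Akr1c6 was at 618, 442 and 612 CPM in KO and at 1160, 1290 and 1090 CPM in WT (log2 fold change -1.08, edgeR adjusted p = 0.0224), and Stard4 was at 14.6, 13.0 and 13.3 against 36.3, 46.9 and 23.1 CPM (log2 fold change -1.38, edgeR adjusted p = 0.0234). Each passed in 3 of the 6 fits without 1 library. Cyp2c70, which makes the muricholic acids of mice, was at 715, 622 and 906 CPM in KO and 1190, 1450 and 1010 CPM in WT, without overlap, and did not pass (log2 fold change -0.70, adjusted p = 0.0962). Cyp39a1, an oxysterol hydroxylase named here after its values were seen, went the other way, at 44.9, 106 and 82.3 CPM against 23.2, 42.3 and 20.9 CPM (log2 fold change 1.43). It did not pass in edgeR (adjusted p = 0.0660) and was called higher by DESeq2 (adjusted p = 0.00235) and with library size only (adjusted p = 0.0358). In this list DESeq2 called 8 lower and 1 higher.

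**Figure D4:**
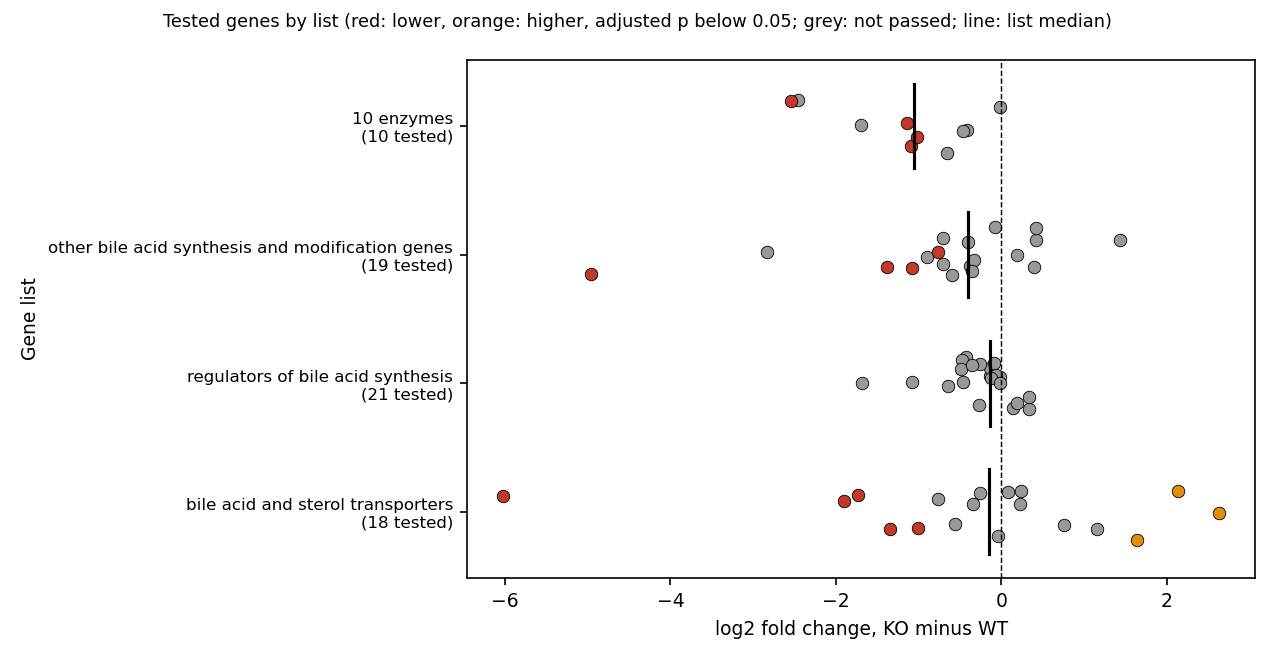
Log2 fold changes (KO minus WT) of the tested genes of 4 lists, 1 point per gene, with vertical jitter only for legibility, and a line at each list's median. The 10 enzymes have a median of -1.06, the 19 other synthesis genes -0.40, the 21 regulators -0.14 and the 18 transporters -0.15, and all coloured points of the first 2 lists lie to the left of no change.

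None of 21 tested regulators of bile acid synthesis was called in either direction by edgeR or limma-voom, and DESeq2 called 1 lower. In edgeR 5 regulators met the unadjusted cutoff of 0.05 used above, as did at least 3304 of all 12945 tested genes. That count therefore does not set the regulators apart from other genes. Nr1h4, which encodes FXR, was at 44.6, 62.4 and 74.7 CPM in KO and at 82.2, 89.3 and 74.1 CPM in WT (log2 fold change -0.43, SE 0.19, edgeR adjusted p = 0.204). Nr0b2, which encodes the repressor SHP, was at 31.0 ± 7.01 CPM in KO and 42.7 ± 11 CPM in WT (SD, n = 3 each), with WT replicate 3 inside the KO range (log2 fold change -0.46, SE 0.24, adjusted p = 0.276). For both genes KO replicate 1 was the lowest of all 6 libraries, as it was for 9 of the 10 enzymes. Nr5a2, the activator LRH-1, had a log2 fold change of -0.27 (SE 0.15, edgeR adjusted p = 0.305).

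The FGF15 receptor genes did not differ beyond their spread. Fgfr4 was at 50.8, 40.5 and 47.9 CPM in KO and 41.3, 43.1 and 42.0 CPM in WT (log2 fold change 0.14, SE 0.12, edgeR adjusted p = 0.495). Klb, which encodes beta-klotho, was at 16.7, 27.3 and 37.4 CPM in KO and 22.7, 39.7 and 23.1 CPM in WT (log2 fold change -0.07, SE 0.33, adjusted p = 0.918), and its direction turned with library size only, without KO replicate 1 and without WT replicate 2. Fgf15, an ileal gene, had 0 counts in all 6 libraries.

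Among 18 tested transporters of bile acids and sterols, 5 were called lower and 3 higher. Slc10a1, the main sodium-dependent bile acid uptake carrier, was at 48.0, 102 and 105 CPM in KO and 239, 491 and 219 CPM in WT (log2 fold change -1.90, edgeR adjusted p = 0.0428; with each KO library or WT replicate 3 left out, or no low-count filter, adjusted p rose to between 0.0656 and 0.129). Abcb11, the canalicular bile salt export pump and an FXR target, was at 538, 527 and 742 CPM against 491, 912 and 457 CPM (log2 fold change -0.04, adjusted p = 0.946; the direction turned with upper-quartile factors, library size only, limma-voom and 3 of the fits without 1 library). By smallest p, Slco1a1 (log2 fold change -6.02), Slco2b1 (-1.34) and Slc10a5 (-1.01), all uptake carriers or relatives of one, led the falls, and the exporters Abcc4 (2.14) and Abcb1a (1.64) led the rises. Of these, Slco1a1, Slco2b1 and Abcc4 passed in 4 or more of the 6 fits without 1 library. Slco1a1 is also among the male-biased genes above, so its fall is counted in both lists.

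Marker genes of other liver cells differed as well. Of 14 macrophage markers 4 were called higher and none lower, and their summed level was 2704 to 3247 CPM in KO and 1159 to 2438 CPM in WT. Of 12 stellate cell and fibroblast markers 4 were called higher and none lower, with sums of 1033 to 1318 CPM against 376.3 to 585.0 CPM. The sums of 14 hepatocyte markers overlapped, at 146400 to 175700 CPM in KO and 128000 to 198600 CPM in WT, and 1 of them was called lower by edgeR and 4 by DESeq2. Most of that sum was Alb and Trf. The median log2 fold change of the 14 was -0.37, with 10 negative, and in 5 of them (35.7%) every KO library lay below every WT library. Sums over 12 cholangiocyte markers also overlapped (135.6 to 165.7 against 86.09 to 141.1 CPM). Of the 10 tested, 9 had positive log2 fold changes (median 0.35) and 1, Prom1, was called higher (log2 fold change 4.18, edgeR adjusted p = 0.00183). Of 10 endothelial markers 9 had negative log2 fold changes (median -0.54) and 1, Dnase1l3, was called lower (log2 fold change -1.47, edgeR adjusted p = 0.0288), while their sums overlapped at 237.7 to 521.8 CPM in KO and 490.3 to 665.4 CPM in WT. Sums of lymphocyte and neutrophil markers overlapped too, with none called. The 4 haemoglobin genes listed as red cell markers had 0 counts in every library. How reads shared by near-identical genes such as these were counted is not known here, so the zeros do not show that red cell RNA was absent. The summed level of the remaining red cell genes, nearly all of it Alas2, was 31.15 to 48.78 CPM in KO and 109.7 to 255.8 CPM in WT. Of 16 pericentral hepatocyte genes, from the zone where Cyp7a1 is known to be stronger, 9 were called lower and 1 higher, with sums of 2690 to 5613 CPM in KO and 12330 to 17320 CPM in WT. Of 16 periportal genes 2 were lower and 3 higher, with overlapping sums. In whole-liver RNA, fewer cells of a type and less RNA per cell cannot be told apart, and the part of these shifts in the enzyme differences was not tested.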

How the data were processed

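The deposited values are raw read counts, in whole numbers, for each gene symbol and library, and they entered the tests unchanged. For the authors' own steps, the submitters' processing notes list the programs featureCounts, Subread 1.5.3, STAR 2.5 and edgeR 3.20.8 and the build mm10. Not given in the sources used here: their roles, the gene models, strandedness and multi-mapping rules. Genotype was read from the labels. Replicate numbers follow accession order and link no KO library with a WT library. The labels do not say whether the samples of a genotype are from separate animals, so p-values reflect the spread between these samples, which may be technical. Counts of libraries within a group differed by more than sampling noise (chi-square per degree of freedom 22.4 to 136).

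The fit used edgeR 4.0.16 (R 4.3.3). Genes were kept by filterByExpr (count 10, total 15), scaled by TMM, fitted by glmQLFit with robust dispersion and compared by the two-sided quasi-likelihood F-test, KO minus WT, adjusted by Benjamini-Hochberg over 12945 genes. The standard error is the ratio of the log2 fold change to the square root of F, and intervals are 95% intervals of that fit. An exact permutation test of 3 against 3 cannot go below 0.10. The code was tested on simulated data, where the share of false calls was above the nominal level and most small changes were missed, so calls near the threshold are less certain than their adjusted p. Alternatives were RLE, upper-quartile and no scaling factors, no low-count filter, 1 CPM in 3 libraries, DESeq2 1.42.0, limma-voom (limma 3.58.1), no robust dispersion, each library left out, and longest transcripts as gene lengths.

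The enzymes, gene lists and tests were chosen with earlier results of these data known. Named by rule were the 10 enzymes, Sesn3, Nr1h4, Nr0b2, Nr5a2, Hnf4a, Fgfr4, Klb, Fgf15, Cyp2c70, Abcb11 and Slc10a1, the called genes of the pathway lists (up to 5 a list by smallest p), and the 3 genes nearest to Cyp7a1 and to Cyp7b1 by Pearson r (log2 CPM, prior count 2), of which 1 is not reported here. Positions and lengths are from GENCODE M21, and promoters from RefSeq GRCm38.p6, both on the build of the notes. Figures were drawn with matplotlib 3.10.9.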

Additional observations from a re-analysis of the deposited data

How the results depend on the processing

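The count of 4 enzymes called lower held with each scaling, filter, voom and dispersion setting, and was 6 with DESeq2. Leaving out 1 library gave 0 to 4. It gave 0 without KO replicate 1 or 2 and 2 without KO replicate 3. Without WT replicate 1 it gave 4, with Cyp8b1 in place of Slc27a5. It gave 2 without WT replicate 2 and 1 without WT replicate 3. Over all genes, library size only gave 707 higher and 258 lower (435 and 463 with TMM) and shifted the median of all genes by 0.21 on the log2 scale, and DESeq2 gave 921 and 1061. Calls higher were 73.3% of all calls with library size only, against 48.4% with TMM. Without 1 library the counts were 48 to 504 higher and 53 to 475 lower. Among the other synthesis genes, DESeq2 called 8 lower and 1 higher and library size only called 1 higher, with 1 to 4 lower and 0 to 2 higher without 1 library. Among regulators, library size only called 1 higher and DESeq2 1 lower. Among transporters, 0 to 5 were lower and 1 to 3 higher without 1 library. Fits without 1 library test fewer samples. Beyond that the cause of these shifts was not tested.

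Directions turned in 5 genes that were not called. Acox2 was 0.03 under upper-quartile scaling, 0.18 with library size only and -0.20 to 0.14 without 1 library. Hnf4a was 0.09 and Klb 0.14 with library size only, and without 1 library they ran from -0.25 to 0.07 and from -0.37 to 0.25. Abcb11 was 0.01 under upper-quartile scaling and under limma-voom, 0.19 unscaled and -0.22 to 0.35 without 1 library, and Akr1d1 was -0.72 to 0.08 without 1 library. The log2 ratio of Cyp8b1 to Cyp7a1, 0.30 higher in KO, ran from -0.35 to 1.07. No paired analysis was possible because the labels give no replicate numbers shared between genotypes. By the longest transcript, Acox2 (113 CPM per kilobase in WT) stood above Cyp7b1 (104), and with the union of exons below it, and in KO it stood level with Cyp27a1.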
